A study of Mus musculus with 14 samples.

Results

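Calcitonin gene-related peptide (CGRP), adrenomedullin and the receptor subunits that bind them were followed through RNA sequencing of Nes-GFP+ bone marrow stromal cells (BMSCs) from leukemic and normal mice. The set holds 7 genes of the 27099 lines of the count table, chosen by name: Calca and Calcb, which encode the CGRP peptides, Adm, which encodes adrenomedullin, Calcrl, which encodes the shared receptor, and Ramp1, Ramp2 and Ramp3, which encode its partners. They were picked with their levels by status and Nes-GFP population already known, so that their levels and fold changes are a description and carry no test. The 14 libraries form 4 groups. From primary iMLL-AF9 mice there were 2 high and 4 low libraries by GFP, and from normal mice 2 high and 6 low ones. iMLL-AF9 mice carry rtTA in the ROSA26 locus and a human MLL-AF9 fusion under the tetracycline-response element, and were killed when doxycycline had brought on acute myeloid leukemia (AML) with a high white blood cell count. Normal mice, which the paper calls wild-type controls, received sucrose in water as vehicle. AML, the iMLL-AF9 genotype and doxycycline therefore cannot be told apart. GFP in all groups came from a reporter driven by regulatory elements of the nestin gene, and cells were sorted as GFP+ and negative for CD45, CD31, the erythroid antigen Ter119 and DAPI after the bones had been crushed with collagenase and red cells lysed. The study used young adult mice of both sexes, some libraries came from 1 mouse and others from pools of 2, and which is which is not given in the sources used here. Any p-value therefore measures the spread between these libraries, which may in part be technical.

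CGRP and adrenomedullin are related peptides that act through one receptor protein, the calcitonin receptor-like receptor encoded by Calcrl. Which peptide it prefers depends on the receptor activity-modifying protein at its side: with RAMP1 it forms the CGRP receptor, and with RAMP2 or RAMP3 it forms adrenomedullin receptors. All 3 complexes signal mainly through the stimulatory G protein, adenylyl cyclase, cAMP and protein kinase A, and both peptides are strong dilators of blood vessels. In bone marrow CGRP is best known from sensory nerve fibers that follow the vessels, while the Calcrl-Ramp2 pair is typical of endothelium.

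The RNA of Calca can be spliced into a calcitonin message, typical of thyroid C cells, or a CGRP message, typical of neurons, and Calcb encodes a CGRP that differs little from it. Calca lies on the minus strand at chr7:114631478-114636357 (GRCm38) and Calcb on the plus strand at chr7:114718643-114723365, with 82286 bases between them. The stretches that encode the mature peptides are shown because the counts were made per gene and hold no information on which message was present. The first 2 lines below are the CGRP stretches of exon 4 of transcripts Calca-201 (chr7:114632470-114632580, minus strand) and Calcb-201 (chr7:114721994-114722104, plus strand), with 111 bases and 37 codons each. Capitals mark the 5 bases at which they differ. The line after them is the calcitonin stretch of exon 4 of transcript Calca-202 (chr7:114633665-114633760, minus strand), with 96 bases and 32 codons. All are from GENCODE M21 transcripts.
Calca CGRP: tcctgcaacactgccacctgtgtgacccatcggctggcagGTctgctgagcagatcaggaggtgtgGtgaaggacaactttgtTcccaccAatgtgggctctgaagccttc
Calcb CGRP: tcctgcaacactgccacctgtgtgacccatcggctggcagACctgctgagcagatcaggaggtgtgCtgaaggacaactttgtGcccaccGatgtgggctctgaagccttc
Calca calcitonin: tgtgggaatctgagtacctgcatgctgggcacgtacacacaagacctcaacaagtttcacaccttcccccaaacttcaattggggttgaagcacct
The CGRP stretches of the 2 genes share a run of 40 bases, so that a read inside that run cannot be placed with either gene. The Calca and Calcb counts are to this extent uncertain.

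The promoter of Calca (RefSeq, GRCm38.p6, chr7:114636308-114636607, minus strand) is shown because CGRP and adrenomedullin receptors signal through cAMP, and the core of the cAMP response element, TGACG, was searched on both strands of the 300 bases around each gene start.
Calca promoter: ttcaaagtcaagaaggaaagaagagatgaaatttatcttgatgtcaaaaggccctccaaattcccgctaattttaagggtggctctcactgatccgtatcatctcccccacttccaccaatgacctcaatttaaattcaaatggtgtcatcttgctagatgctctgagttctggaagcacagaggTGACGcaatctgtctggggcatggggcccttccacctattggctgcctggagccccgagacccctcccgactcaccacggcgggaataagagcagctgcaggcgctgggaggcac
Capitals mark its only TGACG, which begins at position -65 from the gene start. The core stood in 20.8% of 32851 mouse promoters of the same length, the whole element TGACGTCA in 1.79%, and the hypoxia response core ACGTG in 19.6%. Ramp1 held TGACG once, at position 11 after its start, and the promoters of Adm, Calcrl and Ramp3 held none of these motifs. The promoters of Ramp2 and Calcb were not searched.

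The libraries held 5615941 to 11436652 counts, and 1 count was worth between 0.0917 and 0.163 CPM (counts in 1000000) after TMM scaling. The Nes-GFP high library 1 of normal mice stood apart with RNA of 14842 genes, against 18177 to 20197 genes in the other libraries. Nes was higher in AML Nes-GFP high libraries (32.3 and 26.7 CPM) than in any AML Nes-GFP low library (0 to 5.70 CPM), whereas in normal mice it stood at 2.27 and 36.0 CPM in the high and 0 to 1.29 CPM in the low population. Stromal Cxcl12 was seen in all 14 libraries, at 278 to 42626 CPM, and Lepr at 8.23 to 2015 CPM. Ptprc, which encodes CD45, was also seen in all 14, at 3.95 to 483 CPM, so that RNA of blood cells was present beside that of CD45- cells. In bulk samples of this kind, fewer cells of a type and less RNA per cell cannot be told apart.

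Calca was the member whose level followed AML. In Nes-GFP high BMSCs it stood at 194 and 53.4 CPM in AML (1562 and 510 counts), against 0 and 0.709 CPM in normal libraries (0 and 5 counts). In Nes-GFP low BMSCs it stood at 3.40, 55.3, 17.4 and 39.1 CPM in AML, against 0.536, 0, 0.101, 0, 0.187 and 0 CPM in normal libraries. All 6 AML libraries lay above all 8 normal ones, and the gap ran between 3.40 CPM in AML Nes-GFP low library 1 and 0.709 CPM in normal Nes-GFP high library 2. The group means were 123 ± 99.1 CPM in AML, against 0.355 ± 0.501 CPM in normal Nes-GFP high BMSCs (SD, n = 2 each), and 28.8 ± 23.0 CPM in AML (SD, n = 4) and 0.137 ± 0.209 CPM in normal Nes-GFP low BMSCs (SD, n = 6). Summed over libraries this was a 352-fold ratio in the high population (2072 against 5 counts, 95% interval 151 to 1086) and a 212-fold ratio in the low population (1014 against 8 counts, 107 to 492), with intervals that cover counting error only. The fitted log2 fold changes were 8.41 (SE 2.36) and 7.60 (SE 1.35). Within AML, the high population had 4.25 times the Calca of the low one (log2 fold change 2.1, SE 1.40), but AML Nes-GFP low library 2 lay above AML Nes-GFP high library 2, so that the ranges overlapped. Among all genes of the table, Calca had more CPM than 96.5% of genes in AML Nes-GFP high library 1 and more than 53.9% in AML Nes-GFP low library 1.

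**Figure D1:**
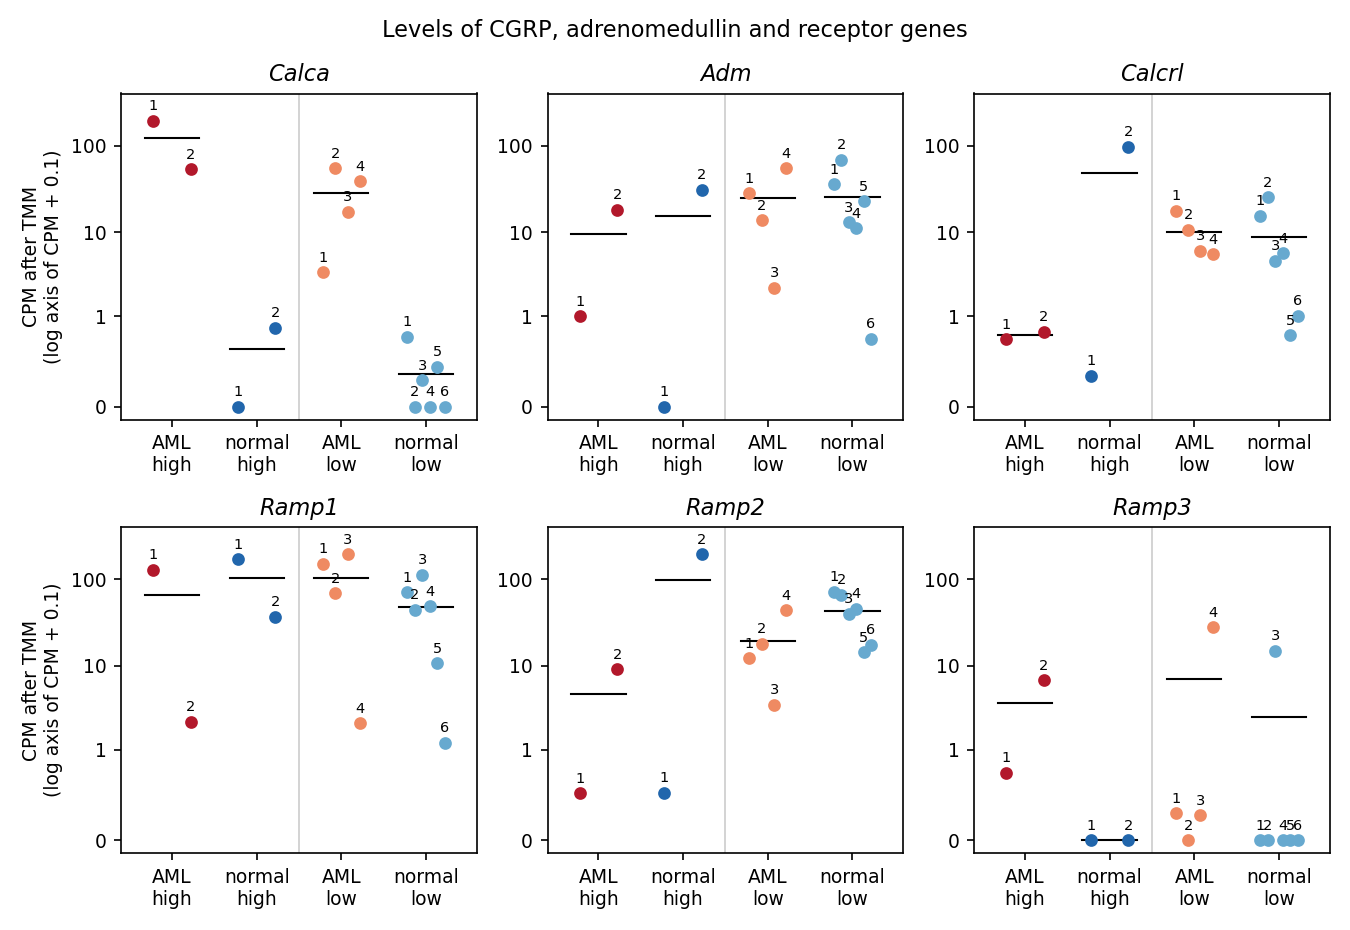
CPM after TMM scaling on a log axis of CPM + 0.1 for the 6 members with more than 1 count, by group; points are libraries with their replicate number, and bars are group means. Calca was higher in all 6 AML libraries than in all 8 normal ones, whereas for the other 5 genes the AML and normal ranges overlapped in the Nes-GFP low population.

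The separation of Calca was set against that of all genes. In Nes-GFP low BMSCs, 80 of 18152 genes tested (0.441%) were higher in every AML than in every normal library, and Calca was the only member among them. In Nes-GFP high BMSCs with 2 against 2 libraries, 2909 genes (16%) separated in this direction, Calca and Ramp3 among them. In both populations at once, comparing all 6 AML with all 8 normal libraries, 18 genes (0.0992%) did so. By the log2 ratio of the means, each plus 1 CPM, Calca was second of the 18 with 5.69, after Coch with 7.15 and before BC100530 with 4.97. The genes opposite, lower in every AML than in every normal library of both populations, numbered 17 (0.0937%) and held no member. Since Calca was chosen for this pattern, its place is a description.

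Coch, which encodes the matrix protein cochlin of the inner ear, was also the gene whose levels were most like those of Calca. Over the 14 libraries, Pearson's r of log2(CPM + 1) was 0.91 between them, and Spearman's rho was 0.91 as well. Coch averaged 2067 CPM in AML, against 13.3 CPM in normal Nes-GFP high BMSCs, and 665 CPM in AML, against 4.84 CPM in normal Nes-GFP low BMSCs. In AML Nes-GFP low BMSCs, library 2 was the highest for both genes, with 2376 CPM of Coch. The next 4 genes by r were Scpep1os (0.90), an RNA without a protein, the pseudogene Gm9359 (0.88), BC100530 (0.88), of the stefin A group of protease inhibitors, and Apold1 (0.88). Of these, Scpep1os and Gm9359 were scarce, with 2.18 and 1.32 CPM on average over all libraries, and stefin A genes are close copies of each other, among which reads may have been split. All these points share their libraries and the split by AML, which alone gives a high r. By Spearman's rho only Coch stayed among the top 5.

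**Figure D2:**
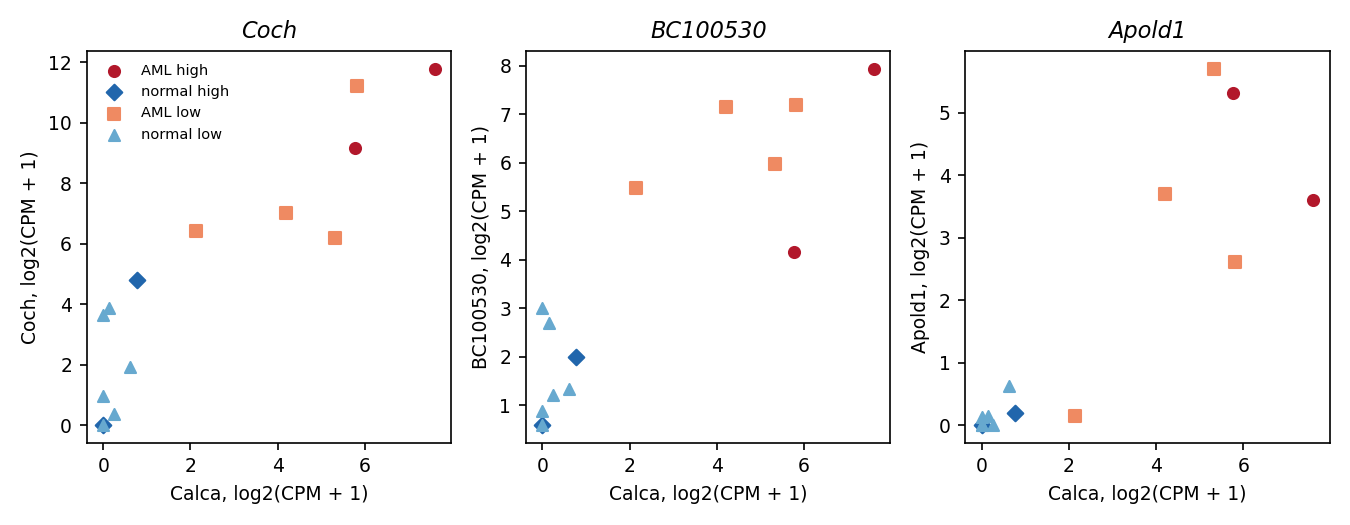
Calca on the x axis against Coch, BC100530 and Apold1 on the y axes, all as log2(CPM + 1), in 14 libraries marked by group. AML libraries lie to the right and normal libraries at the lower left; within AML, Coch was highest in the 2 libraries highest for Calca, and Apold1 was not.

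Calca was then set beside the cell types the sort could hold. For sensory neurons, 13 of 18 listed markers had a line in the table, and their summed level was 37.9 to 42.9 CPM in AML, against 35.6 to 126 CPM in normal Nes-GFP high libraries, and 2.28 to 38.6 CPM in AML, against 0.708 to 31.5 CPM in normal Nes-GFP low libraries. The highest sum of all 14, in normal Nes-GFP high library 1, went with 0 counts of Calca. That sum came mainly from the markers Gal (63.9 CPM) and Tubb3 (61.5 CPM), in the library with RNA of only 14842 genes. In AML Nes-GFP high library 2 the sum came mainly from Avil (35.6 CPM). Prph, a filament gene of peripheral neurons, stood at 18.1 CPM in AML Nes-GFP high library 1 but at 0 to 0.185 CPM in the other 5 AML libraries, and Tubb3 was at 0 to 8.41 CPM in all 6. Gal, the gene of the neuropeptide galanin, named here after its values were seen, stood at 23.2 and 0.314 CPM in AML, against 63.9 and 0.142 CPM in normal Nes-GFP high libraries. In Nes-GFP low BMSCs it stood at 11.6, 4.50, 22.4 and 0.163 CPM in AML, against 0 to 0.107 CPM in the 6 normal libraries, and the AML library at 0.163 CPM had 1 count. It was the 1 sensory neuron marker of 7 tested that DESeq2 called higher in AML Nes-GFP low BMSCs (log2 fold change 7.26, SE 1.74, edgeR adjusted p = 0.478). Of the 7, 4 lay above and 3 below 0 in that comparison. Isl1, a marker of the same list also named after its values were seen, went the other way. Its levels were 0, 0.70, 0 and 0 CPM in AML, against 15.1, 4.25, 2.43, 15.0, 0.281 and 0.101 CPM in normal Nes-GFP low libraries. The part of sensory neuron RNA in the Calca difference was not tested. Neuroendocrine markers (8 of 12 with a line) summed to 39.4 and 25.0 CPM in AML, against 2.02 and 2.84 CPM in normal Nes-GFP high libraries. That sum came mainly from Foxa2 in AML library 1 (310 counts) and Scg2 in AML library 2 (226 counts), 2 genes named here after their values were seen, and each had 3 counts or fewer in the other library. In Nes-GFP low libraries neuroendocrine sums overlapped, at 0.722 to 9.40 CPM in AML, against 0.468 to 10.7 CPM in normal mice.

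Blood and stromal markers differed widely between libraries of the same group. Myeloid markers (16 of 16) summed to 98746 CPM in AML Nes-GFP low library 3, with 17.4 CPM of Calca, and to 104849 CPM in normal Nes-GFP low library 3, with 0.101 CPM of Calca. The blood cell gene Elane stood at 281 to 1494 CPM in AML, against 11.5 to 263 CPM in normal Nes-GFP low libraries. All AML libraries there lay above all normal ones, as for 0.441% of genes tested. In Nes-GFP high libraries Elane overlapped, at 400 and 91.8 CPM in AML, against 311 and 17.6 CPM in normal mice. Mpo overlapped in the low population, at 96.6 to 907 CPM in AML, against 5.67 to 233 CPM in normal mice. In the high population, stromal markers (16 of 16) summed to 6773 and 48836 CPM in AML, against 85051 and 71226 CPM in normal libraries, so that both AML libraries lay below both normal ones, and AML library 1, with the most Calca of all, had the lowest of the 4 sums. Myeloid sums there were 13391 and 2371 CPM in AML, against 34769 and 2021 CPM in normal libraries. In the low population, stromal sums ran from 2406 to 35836 CPM in AML, against 7007 to 79768 CPM in normal libraries, and Calca in AML was lowest in library 1, which had the highest stromal sum. Erythroid markers (14 of 15), of cells that the Ter119 gate was meant to remove, ran from 18.3 to 165 CPM in AML, against 174 to 3102 CPM in normal Nes-GFP high libraries. They summed to 34.0, 46.6, 141 and 5117 CPM in AML, against 535 to 6926 CPM in normal Nes-GFP low libraries. Of the AML Nes-GFP low libraries, only library 4 thus reached the normal range. Lymphoid markers (15 of 15) ran from 11 to 143 CPM in AML, against 232 to 336 CPM in normal Nes-GFP high libraries, and from 84.7 to 154 CPM in AML, against 59.6 to 1923 CPM in normal Nes-GFP low libraries. Progenitor markers (12 of 12) ran from 184 to 243 CPM in AML, against 188 to 253 CPM in normal Nes-GFP high libraries. In Nes-GFP low libraries they ran from 311 to 1135 CPM in AML, against 186 to 943 CPM in normal mice. Over the 14 libraries, the r of Calca was 0.11 with the myeloid, 0.08 with the progenitor, -0.52 with the stromal, -0.57 with the erythroid and -0.70 with the lymphoid sum. The part of myeloid, progenitor, stromal, erythroid and lymphoid content in the Calca difference was not tested.

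Calcb, the second CGRP gene, had 1 count in all 14 libraries, in AML Nes-GFP low library 1 (0.103 CPM). It was the only member that did not pass the filter on low counts, and 6 of the 7 were tested. A count of 0 allows up to 3 counts, which was 0.314 to 0.372 CPM in the AML and 0.378 to 0.426 CPM in the normal libraries of the high population. Nearly all counts of the 2 CGRP genes were thus assigned to Calca, whose counts do not separate its CGRP from its calcitonin messages.

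Adm, the gene of adrenomedullin, lies at chr7:110627661-110629820 and is overlapped by the antisense gene Gm28863. In GENCODE M21 all 1619 exon bases of Adm are its own, so that this overlap lies outside its exons. Adm did not follow AML. Nes-GFP high BMSCs had 0.991 and 18.3 CPM in AML, against 0 and 30.9 CPM in normal libraries. Nes-GFP low BMSCs had 28.4, 13.9, 2.22 and 54.8 CPM in AML, against 36.2, 68.7, 13.1, 11.1, 22.9 and 0.506 CPM in normal libraries. The means in the low population were 24.8 ± 22.6 CPM in AML (SD, n = 4) and 25.4 ± 24.4 CPM in normal mice (SD, n = 6), and the fitted log2 fold change was -0.036 (SE 1.38). The difference between groups was smaller than the spread within them in both populations. The gene most like Adm was Serpina3c, a serine protease inhibitor gene (r = 0.92), followed by Svep1 (0.88), Irgm1 (0.87), Igsf10 (0.86) and Extl2 (0.85).

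Calcrl, the gene of the receptor subunit that the complexes with RAMP1, RAMP2 and RAMP3 described above share, lies on the minus strand at chr2:84330626-84425411. It was low in AML Nes-GFP high BMSCs, at 0.496 and 0.628 CPM (10 counts in all), against 0.126 and 97.4 CPM in normal libraries. Nes-GFP low BMSCs had 17.7, 10.7, 6.10 and 5.54 CPM in AML, against 15.6, 25.3, 4.66, 5.69, 0.561 and 1.01 CPM in normal libraries. Within AML, both Nes-GFP high libraries lay below all 4 Nes-GFP low libraries (log2 fold change -4.12, SE 2.08), a separation that 8.83% of all genes tested showed in this comparison. In the high population, the AML against normal log2 fold change was -6.41 (SE 2.41), but it rested on normal library 2, and without it the value was 2.0. Between high and low BMSCs of normal mice the value was 2.47 (SE 1.41) and, without the same library, -5.94. Calcrl was most like Galnt10, a glycosyltransferase gene (r = 0.90), Rnf135 (0.89), Prdm16 (0.89), Dact1 (0.89) and Zfp362 (0.86), all highest in normal Nes-GFP high library 2.

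Ramp1, at chr1:91179822-91225196, differed widely between libraries of each group. It stood at 128 and 2.20 CPM in AML and at 170 and 36.9 CPM in normal Nes-GFP high libraries. Its levels in Nes-GFP low BMSCs were 150, 68.7, 195 and 2.12 CPM in AML, against 70.6, 44.5, 112, 48.7, 10.7 and 1.21 CPM in normal libraries. AML library 4 was thus near the bottom, while the 3 other AML libraries lay above 6, 4 and 6 of the normal libraries in replicate order 1, 2 and 3. The means in the low population were 104 ± 85.6 CPM in AML (SD, n = 4) and 48.0 ± 40.5 CPM in normal mice (SD, n = 6), a log2 fold change of 1.12 (SE 1.19) that turned to -0.12 with a replicate block. Over all 14 libraries Ramp1 was most like Hmox1, the gene of heme oxygenase 1 (r = 0.90), Anxa5 (0.89), Skap2 (0.89), Gm1848 (0.88) and Cdkn2d (0.87). Its r with the summed myeloid markers was 0.51 and with the sensory neuron sum 0.64, and the part of either in its level was not tested.

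Ramp2, at chr11:101246028-101259546, shares exons with Vps25 through a read-through transcript, so that 2198 of its 3301 exon bases are its own. In Nes-GFP high BMSCs it stood at 0.248 and 9.10 CPM in AML, against 0.252 and 195 CPM in normal libraries. The low population had 12.2, 18.0, 3.51 and 44.2 CPM in AML, against 71.6, 66.6, 39.8, 45.7, 14.4 and 17.6 CPM in normal libraries. The low population averaged 19.5 ± 17.5 CPM in AML (SD, n = 4) and 42.6 ± 23.9 CPM in normal mice (SD, n = 6), a log2 fold change of -1.13 (SE 1.22) with overlapping ranges. In the high population the log2 fold change of -4.37 (SE 2.09) turned to 4.11 without normal library 2. Ramp2 was most like Sned1 (r = 0.92), Gsk3b (0.91), Nid1, a basement membrane gene (0.90), Amotl1 (0.90) and Ddx17 (0.89). Endothelial markers (13 of 18 with a line) summed to 81.0 CPM in normal Nes-GFP high library 2, the library with the most Ramp2, where 10 of the 13 other libraries had more and the highest had 625 CPM, and the r of Ramp2 with this sum was -0.25. In that library Pecam1, which encodes CD31, stood at 1.42 CPM (10 counts) and Emcn, Flt1 and Tek at 0 to 0.142 CPM, so that the sum came mainly from other markers. The part of endothelial RNA in the Ramp2 level was not tested.

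Ramp3, at chr11:6658521-6677475 with the pseudogene Gm11978 on the other strand, was seen in few libraries. It stood at 0.496 and 6.80 CPM in AML Nes-GFP high libraries and had no count in the 2 normal ones, which makes the AML mean at least 9.08-fold higher than a floor of 3 counts per library. Its low-population levels were 0.103, 0, 0.0924 and 27.9 CPM in AML, against 0, 0, 14.9, 0, 0 and 0 CPM in normal libraries. A single library carried nearly all of it in each of these groups. The fitted log2 fold change in the low population was 1.49 (SE 2.32) and, without AML library 4, -5.00.

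Levels of different genes were compared per kilobase of exon bases that no other gene shares. In AML Nes-GFP high BMSCs, Calca averaged 73.3 CPM per kb and Ramp1 21.5, while Adm averaged 5.96, Ramp3 2.85, Ramp2 2.13 and Calcrl 0.115 CPM per kb. In AML Nes-GFP low BMSCs, Ramp1 averaged 34.4, Calca 17.1, Adm 15.3, Ramp2 8.85, Ramp3 5.48 and Calcrl 2.05 CPM per kb. In normal Nes-GFP low BMSCs, Ramp2 averaged 19.4, Ramp1 15.9, Adm 15.7, Ramp3 1.94, Calcrl 1.81 and Calca 0.0816 CPM per kb. In normal Nes-GFP high BMSCs, the means were 44.3 for Ramp2, 34.3 for Ramp1, 9.99 for Calcrl, 9.55 for Adm and 0.211 for Calca. Neighbors in these orders were mostly closer than their spread: the SD of Ramp1 in AML Nes-GFP low BMSCs, for example, was 28.3 CPM per kb and that of Calca 13.6. Across the 4 groups, the order of mean levels separated neighboring groups without overlap only for Calca, between AML Nes-GFP low and normal Nes-GFP high BMSCs.

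The make-up of the RAMPs differed from library to library. Of their summed CPM per kb, Ramp1 made up 98.8% in AML Nes-GFP high library 1 and 7.14% in library 2, against 99.8% and 12.1% in normal library 1 and 2. In the low population, Ramp1 made up 89.8%, 73.5%, 97.5% and 1.65% in AML, against 41.8%, 32.7%, 55.5%, 43.7%, 35.0% and 4.78% in normal libraries. Ramp1 thus led in 3 of 4 AML and in 1 of 6 normal Nes-GFP low libraries, while Ramp2 led in 0 of 4 AML and in 5 of 6 normal ones. Ramp3 led in AML Nes-GFP high library 2 (52.2%) and in AML Nes-GFP low library 4 (51.2%), the 2 AML libraries where Ramp1 was nearly absent. With whole exon lengths in place of the unshared ones, Ramp1 also led in normal Nes-GFP low libraries 1 and 4.

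**Figure D3:**
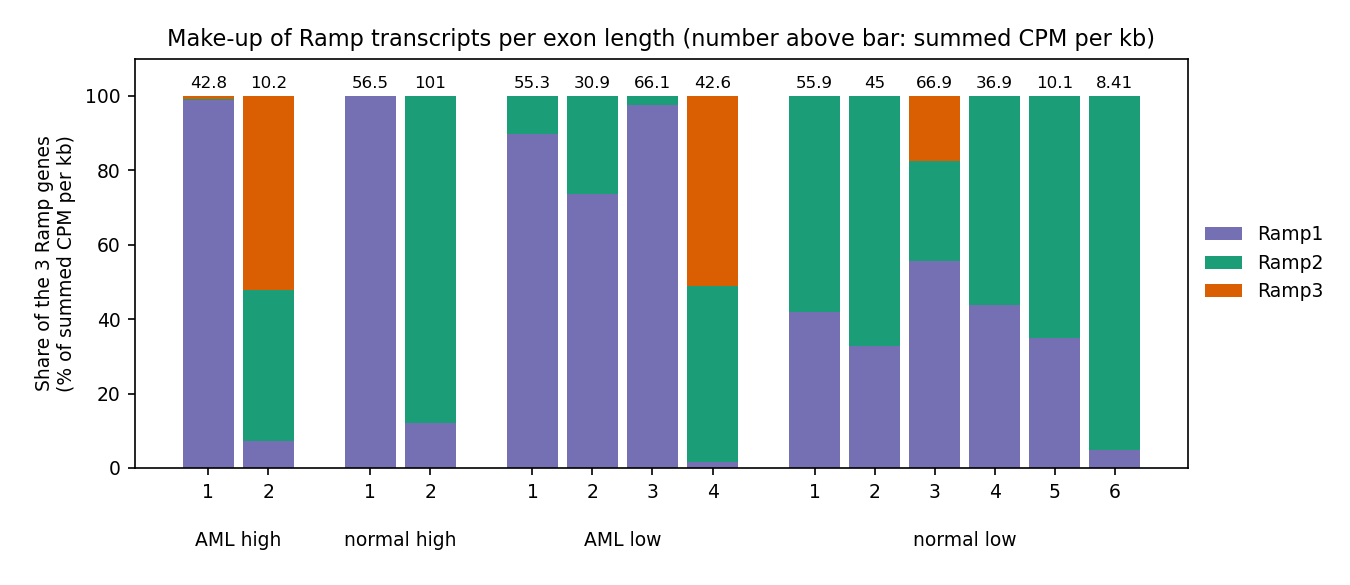
Share of Ramp1, Ramp2 and Ramp3 in their summed CPM per kb (y axis, percent) in each library (x axis, replicate numbers by group), with the summed CPM per kb above each bar. Ramp1 led in 3 of 4 AML Nes-GFP low libraries and Ramp2 in 5 of 6 normal ones; the sum itself ran from 8.41 to 101 CPM per kb.

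Among the receptor and ligand genes, Adm, Calcrl and Ramp2 went together across libraries. Pearson's r of log2(CPM + 1) over 14 libraries was 0.77 for Adm and Ramp2, 0.74 for Calcrl and Ramp2 and 0.64 for Adm and Calcrl, with Spearman's rho of 0.67, 0.70 and 0.66. All 3 genes were lowest, or nearly so, in normal Nes-GFP high library 1, and normal Nes-GFP high library 2 was the highest for Calcrl and Ramp2. For Calca, r was -0.20 with Calcrl, -0.06 with Ramp1, -0.42 with Ramp2 and 0.31 with Ramp3, and rho was -0.0089, 0.09, -0.32 and 0.53 in the same order. In AML Nes-GFP high library 1, which had the most Calca of all, Ramp1 stood at 128 CPM and Calcrl at 0.496 CPM. AML Nes-GFP low library 2 had 55.3 CPM of Calca with 10.7 CPM of Calcrl and 68.7 CPM of Ramp1, so that RNA of the ligand and of both CGRP receptor subunits was present in 1 library. Whether the same cells carried them cannot be told in bulk RNA.

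**Figure D4:**
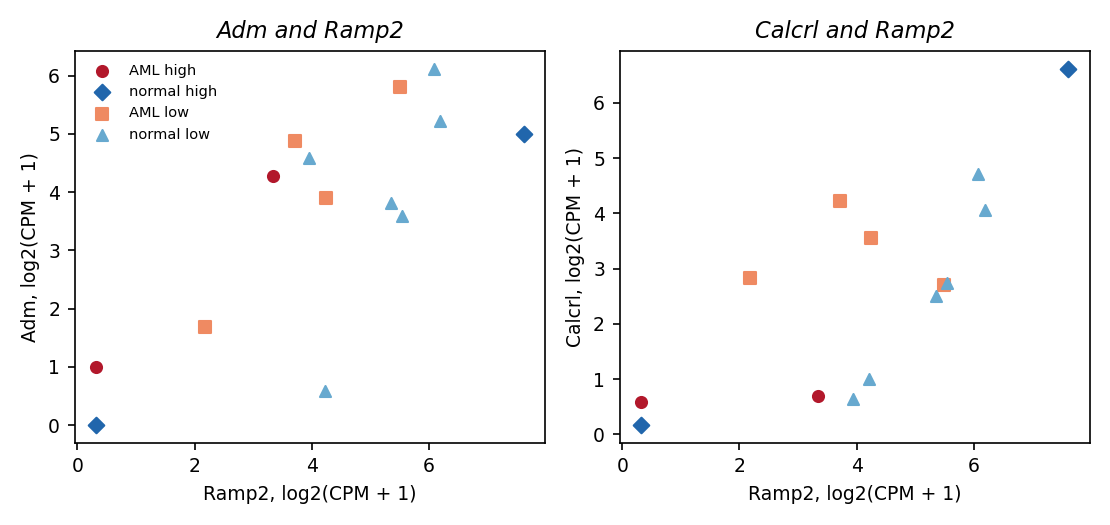
Ramp2 on the x axes against Adm (left) and Calcrl (right), all as log2(CPM + 1), in 14 libraries marked by group. The points rise together, with normal Nes-GFP high library 1 at the lower left and normal Nes-GFP high library 2 at the far right of both panels.

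In the fit across all 18152 genes (edgeR's quasi-likelihood test, Benjamini-Hochberg adjusted p under 0.05, two-sided), no gene passed in any of the 4 comparisons or in the difference of the 2 AML effects (0%), and neither did any of the 6 members tested. With an unadjusted p under 0.05, edgeR gave 1384 genes higher (7.62%) and 825 lower (4.54%) in AML Nes-GFP high BMSCs, and 480 higher (2.64%) and 526 lower (2.9%) in AML Nes-GFP low BMSCs. DESeq2 called 946 genes higher (6.24%) and 647 lower (4.27%) in AML than in normal Nes-GFP high BMSCs, with Calca among the higher and Calcrl among the lower. In Nes-GFP low BMSCs it called 36 higher (0.208%) and 82 lower (0.473%), with Calca among the higher. For the difference of the AML effects between populations it called 497 genes higher (3.28%) and 271 lower (1.79%), with Calcrl among the lower. Between Nes-GFP high and low BMSCs it called no member. Since the members were chosen by these comparisons, nothing is read from these counts.

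Genes around the peptides and receptors were followed in 6 lists of 103 genes, of which 93 had a line and 90 were tested. None passed edgeR's test in any comparison. In AML against normal Nes-GFP high BMSCs, 61 had a log2 fold change above, 28 below and 1 at 0, where 9458 of all 18152 genes lay above 0. The median was 0.70 (0.66 with 5 genes of an empty group set at their bound) beside 0.08 over all genes. At edgeR's unadjusted p under 0.05, 13 were higher and 3 lower, against 7.62% and 4.54% over all genes. DESeq2 called 12 higher and 3 lower, against 6.24% and 4.27% over all genes. In Nes-GFP low BMSCs, 56 lay above and 34 below 0, where 9114 of all 18152 genes lay above 0. The median was 0.15 beside 0.0034 over all genes. The unadjusted p was under 0.05 for 0 higher and 2 lower genes, against 2.64% and 2.9% over all genes. DESeq2 called none, against 0.208% higher and 0.473% lower over all genes. The 2 comparisons of AML with normal mice share no library.

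The relatives of the peptides and receptors did not follow Calca. Adm2, the gene of adrenomedullin 2 (intermedin), stood at 31.3 CPM in AML Nes-GFP high library 1 and at 0 in AML library 2, against 0 and 0.426 CPM in normal libraries, and at 0 to 0.206 CPM in AML against 0 to 5.97 CPM in normal Nes-GFP low libraries. Its log2 fold change was 6.13 in the high (SE 3.32, edgeR adjusted p = 0.466) and -5.02 in the low population (SE 2.22, adjusted p = 0.856). Gpr182, a receptor of the vessel lining once linked to adrenomedullin, was seen mainly in normal Nes-GFP low library 1, at 23.4 CPM, and its log2 fold change in the low population was -5.19 (SE 2.05, adjusted p = 0.773). Ackr3, a scavenging receptor for CXCL12 and adrenomedullin, stood at 24.8 and 38.1 CPM in AML and at 79.4 and 31.1 CPM in normal Nes-GFP high libraries, with a log2 fold change of -0.81 (SE 1.84). Crcp, which encodes a component of the CGRP receptor complex, had a log2 fold change of 0.30 (SE 1.18) in the high and -0.13 (SE 0.77) in the low population. Iapp and Calcr, the genes of amylin and the calcitonin receptor, were not analysed here.

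Of 14 listed genes that cut, amidate or degrade such peptides, 9 had a line and 7 were tested. Pam, whose product forms the amide that CGRP and adrenomedullin need at their end, was abundant, at 717 and 799 CPM in AML, against 34.3 and 438 CPM in normal Nes-GFP high libraries (log2 fold change 1.68, SE 1.06, edgeR adjusted p = 0.548). Furin, a protease that cuts precursors, stood at 113 and 166 CPM in AML, against 37.3 and 63.4 CPM in normal Nes-GFP high libraries. Its log2 fold change was 1.47 (SE 0.61, edgeR adjusted p = 0.381), and DESeq2 called it higher. Ece1, an endothelin-converting protease that also degrades CGRP, had a log2 fold change of 0.98 (SE 1.11). Pcsk2, which processes peptides in neuroendocrine cells, was at 0 to 0.652 CPM in all 14 libraries. The processing genes as a list had a median log2 fold change of 0.10 in the high and 0.01 in the low population.

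Receptor coupling genes had a median log2 fold change of -0.51 in the high and 0.18 in the low population (15 tested). Gnaq, the gene of a G protein that works through calcium, stood at 1.11 and 0.732 CPM in AML, against 39.0 and 72.1 CPM in normal Nes-GFP high libraries (log2 fold change -5.89, SE 1.82, edgeR adjusted p = 0.28), and DESeq2 called it lower. Grk5, a kinase that shuts off receptors, had no count in normal Nes-GFP high libraries and 0.248 and 29.7 CPM in AML. Nsf, which is needed for receptor recycling, had a log2 fold change of -1.29 (SE 0.65).

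Genes of cAMP synthesis and breakdown (27 tested) had a median log2 fold change of 1.24 in AML against normal Nes-GFP high BMSCs, with 20 above and 7 below 0. In Nes-GFP low BMSCs it was -0.23, with 13 above and 14 below. Between normal Nes-GFP high and low BMSCs it was -1.99 (-0.75 with 1 gene at its bound), with 7 above and 20 below, where 7466 of all 18152 genes lay above 0. For AML against normal, the share above 0 over all genes was 9458 of 18152 in the high and 9114 of 18152 in the low population. The 3 phosphodiesterase genes with the smallest p break down cAMP. Pde3b stood at 99.4 and 87.3 CPM in AML, against 0 and 0.567 CPM in normal Nes-GFP high libraries. Its log2 fold change was 8.32 (SE 2.15, edgeR adjusted p = 0.222). Pde4b stood at 289 and 179 CPM in AML, against 11.7 and 5.67 CPM in normal libraries, with a log2 fold change of 4.74 (SE 1.42), and Pde8a at 90.6 and 38.3 CPM in AML, against 8.32 and 5.82 CPM in normal libraries, with 3.19 (SE 0.92). DESeq2 called all 3 higher. They were low in both normal Nes-GFP high libraries compared with the low population as well: normal high against low gave -5.33, -3.37 and -2.19 for Pde3b, Pde4b and Pde8a. Both comparisons use the same normal Nes-GFP high libraries.

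CREB, its coactivators and targets of cAMP (16 tested) had a median log2 fold change of 1.32 in the high population, with 13 above and 3 below 0. In the low population the median was 0.66, with 15 above and 1 below. Of all 18152 genes, 9458 in the high and 9114 in the low population lay above 0. None of the 15 genes above 0 in the low population passed the test, nor did any have an unadjusted p under 0.05. Nr4a2, an immediate early gene and nuclear receptor, stood at 20.4 and 81.5 CPM in AML, against 1.01 and 0.284 CPM in normal Nes-GFP high libraries. Its log2 fold change was 6.26 (SE 1.42, edgeR adjusted p = 0.176), the smallest adjusted p of the 90 genes, and DESeq2 called it higher. In the low population Nr4a2 stood at 32.8, 150, 227 and 74.5 CPM in AML, against 20.9, 11.1, 115, 37.8, 50.2 and 42.8 CPM in normal libraries (log2 fold change 1.39, SE 0.71). Per1, a clock gene with a cAMP-responsive promoter, had a log2 fold change of 5.68 (SE 1.44) and Sik3, a kinase that restrains CREB coactivators, one of 6.76 (SE 1.99) in the high population. Immediate early genes respond to the handling of tissue as well as to cAMP, and their 16 markers summed to 34415 and 8150 CPM in AML, against 13743 and 7071 CPM in normal Nes-GFP high libraries, and to 3269 to 24973 CPM in AML, against 6083 to 29588 CPM in normal Nes-GFP low libraries. The part of handling in these levels was not tested.

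Hypoxia genes were included because Adm is a classical target of hypoxia-inducible factors. Of 20 tested, 15 lay above and 5 below 0 in the high population with a median of 0.82 (0.68 with 2 genes at their bound). In the low population 12 lay above and 8 below, with a median of 0.09. Beside them, 9458 of all 18152 genes lay above 0 in the high and 9114 in the low population. Slc2a1, the glucose transporter, stood at 114 and 45.7 CPM in AML, against 14 and 3.97 CPM in normal Nes-GFP high libraries (log2 fold change 3.15, SE 1.19, edgeR adjusted p = 0.345). Pdk1, which limits entry of pyruvate into mitochondria, had 5.80 (SE 2.64), and DESeq2 called both higher. Bnip3l had a log2 fold change of 1.0 (SE 0.54). Adm itself had -0.68 in this comparison, which turned to 1.74 with limma voom and to 0.24 without AML Nes-GFP high library 1.

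**Figure D5:**
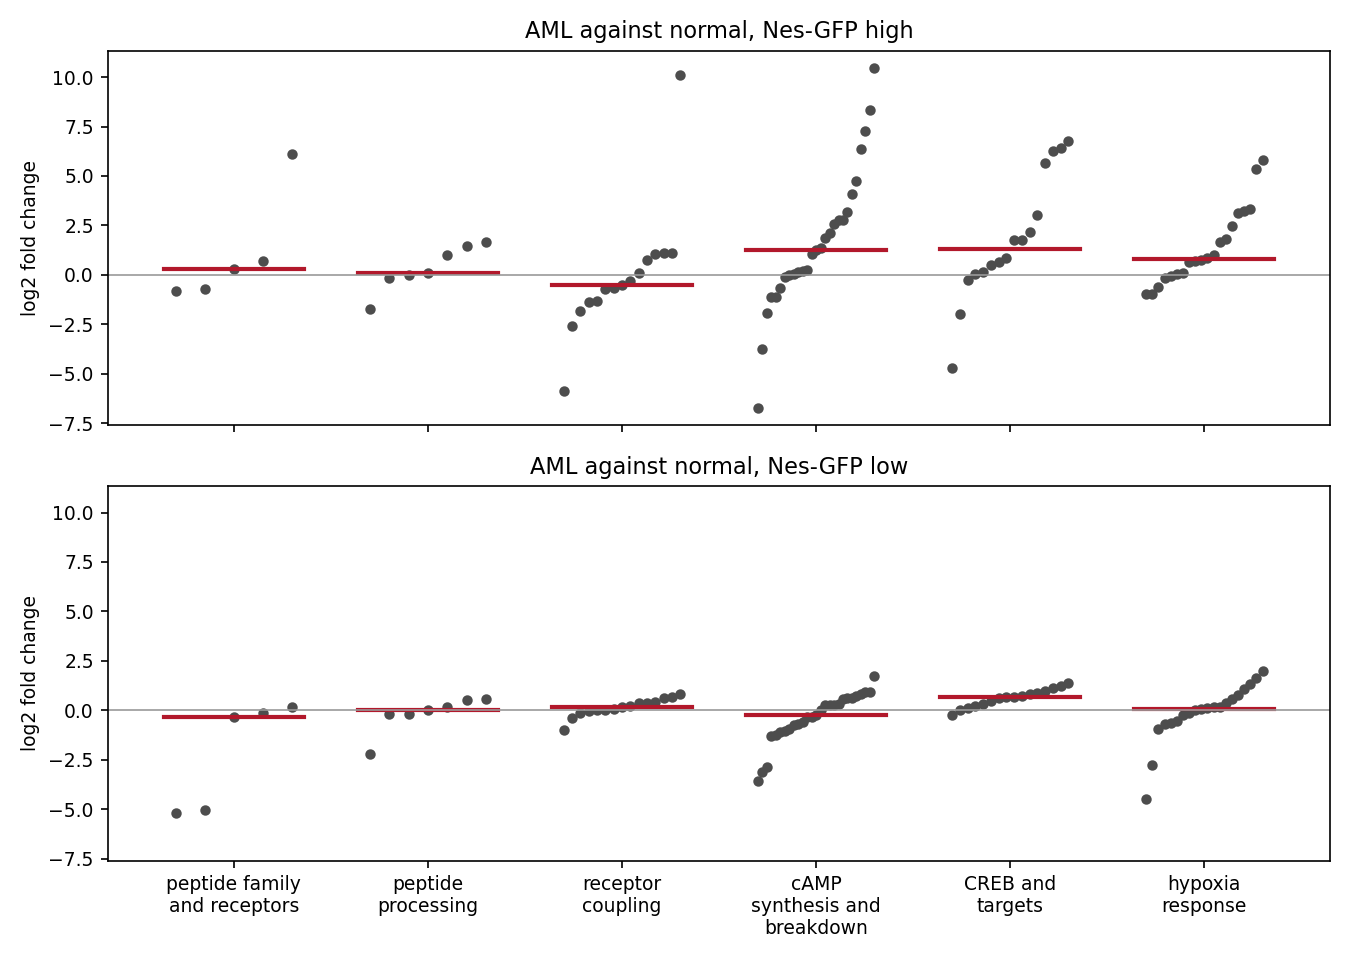
Log2 fold changes (y axis) of 90 genes in 6 lists (x axis) for AML against normal Nes-GFP high (top) and Nes-GFP low BMSCs (bottom); points are genes, ordered by value, and red bars are list medians. The high population spans -6.74 to 10.5 and the low one -5.19 to 2.0; values of 5 genes with no count in a group of the high population are not bounds.

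Nes-GFP high was finally compared with Nes-GFP low BMSCs, in the same libraries that entered AML against normal. In normal mice, the 90 genes had a median log2 fold change of -0.33 (-0.27 with 5 genes at their bound), beside -0.27 over all genes, and DESeq2 called 15 lower and 0 higher, against 10.4% lower and 0.621% higher over all genes. By list, the fitted median was -1.99 for cAMP genes (-0.75 with 1 gene at its bound) and -1.19 for CREB genes. The other lists had medians from -0.26 to 0.40. Of the genes called lower, 7 were cAMP and 6 CREB genes. In AML mice the median was 0.19 beside -0.10 over all genes, and DESeq2 called 1 higher and 5 lower, against 0.601% and 6.45% over all genes. Sik1, a kinase gene that cAMP switches on, had -4.73 (SE 1.11, edgeR adjusted p = 0.314) in AML, and Ep300, a CREB coactivator gene, had -6.30 (SE 1.68, adjusted p = 0.356). The single gene called higher was Furin, at 1.32 (SE 0.50). The members' own values in normal mice were 1.29 for Calca, -0.72 for Adm, 1.11 for Ramp1 and 1.19 for Ramp2, and in AML mice -1.36 for Adm, -0.68 for Ramp1 and -2.05 for Ramp2, and for all of them the ranges of high and low libraries overlapped. With a replicate block the value of Ramp1 in normal mice turned to -0.21.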

How the data were processed

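The authors deposited raw read counts for each gene symbol. According to the submitters' processing notes and the methods, Smart-seq2 reads were trimmed (Trim Galore 0.4.1), mapped to mm10 (TopHat2 2.1.0) and assigned to genes with featureCounts; the authors used DESeq2 1.14.1 for testing, and the strand setting is not given in the sources used here. The table has 2 further library columns, which matched no sample here and were not used, and 13 symbols stand on 2 lines each.

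Samples were grouped by their labels. All 14 libraries entered 1 fit with 4 groups (edgeR 4.0.16 quasi-likelihood test in R 4.3.3, TMM, filterByExpr with a minimum count of 10, 18152 genes, Benjamini-Hochberg adjusted p under 0.05, two-sided). Levels are CPM after TMM. Likeness is Pearson's r of log2(CPM + 1), with 5 genes named per member. All members and the family genes were named, except 1 that is not reported here, and of the other lists the 3 genes with the smallest unadjusted p in a comparison. The members and lists were chosen with earlier results of these data known. Reads carry no molecular identifiers, so intervals and floors (3 counts, 95% intervals) cover counting error only. Depth was 5615941 to 11436652 counts.

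Alternatives were DESeq2 1.42.0, limma 3.58.1 (voom with sample quality weights), other scalings and filters, only the compared groups, a replicate block and each library left out in turn. The use of whole exon lengths was chosen after seeing the data. No pair of libraries within a group looked like 1 library deposited again. Positions and lengths are from GENCODE M21 (GRCm38), promoters from RefSeq, 5 of 7 members having one. Python 3.11.15, numpy 2.4.6, pandas 2.3.3, scipy 1.17.1 and matplotlib 3.10.9 were used for tables and figures.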

Additional observations from a re-analysis of the deposited data

Results flagged for a closer look

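In groups of 4 to 6 libraries, 13 sets of values with a spread were examined for a library far from the others. The limits used mark about 1 set in 20 by chance where values are normally distributed. That rate does not hold for sets in which most libraries had hardly any counts, as in all those named here. Calca in normal Nes-GFP low library 1, at 0.536 CPM (5 counts), lay apart from the other 5 normal libraries of that population. Calcb in AML Nes-GFP low library 1, at 0.103 CPM, was its only count. Ramp3 stood at 27.9 CPM in AML Nes-GFP low library 4 and at 14.9 CPM in normal Nes-GFP low library 3, each far above the rest of its group. AML library 4 was also the AML Nes-GFP low library with the least Ramp1.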

How the results depend on the processing

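The group means of the 24 gene and group pairs kept within 1 SD when CPM was taken from library totals alone. Calca kept its direction in AML against normal BMSCs in every fit that gave a value, between 7.19 and 9.03 in the high and 7.07 and 8.66 in the low population on the log2 scale. For Calca no fold change could be fitted in the high population without normal Nes-GFP high library 2, whose loss leaves Calca at 0 in that group, and genes below 10 CPM on average have no value under that filter. DESeq2 called 1593, 118, 1737, 1090 and 768 genes in the comparisons of AML with normal high, AML with normal low, high with low in normal mice, high with low in AML, and the difference, against 0 by edgeR, and 15, 15, 6 and 8 of the signalling genes in all but the second. With limma voom, high against low in AML gave 1 call, Ramp2 in high against low of normal mice -2.37 Calcrl there -0.22, Ramp3 in AML 3.46 and Adm in AML against normal high BMSCs 1.74. A mean of at least 10 CPM gave 1 call in AML against normal high BMSCs. Replicate numbers did not pair the libraries (correlations of deviations -0.136 to 0.372), and the replicate block gave -0.12 for Ramp1 and -0.04 for Calcrl in AML against normal low BMSCs, -0.21 for Ramp1 and -1.59 for Ramp2 in high against low of normal mice, and -4.97 for Calcrl and 5.18 for Ramp3 in high against low of AML.

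With 1 library left out, calls ran from 0 to 194 in AML against normal high BMSCs (194 without normal high library 2), 0 to 189 in high against low of normal mice and 0 to 144 for the difference (both highest without the same library), and 0 to 1 in high against low of AML (1 without AML low library 1). The log2 fold changes in AML against normal high BMSCs ran from -3.96 to 0.24 for Adm (above 0 without AML high library 1), -5.59 to 0.89 for Ramp1 (lowest without AML high library 1), -7.29 to 2.0 for Calcrl and -8.56 to 4.11 for Ramp2 (both highest without normal high library 2), and in low BMSCs from -0.77 to 0.56 for Adm, -0.28 to 0.86 for Calcrl and -5.00 to 1.91 for Ramp3. In high against low of AML they ran from -5.55 to 0.28 for Ramp1, -4.61 to -0.40 for Adm and -6.20 to -1.06 for Ramp2 (the last 2 lowest without AML high library 2) and -3.73 to 5.56 for Ramp3. In high against low of normal mice they ran from -0.94 to 0.12 for Adm and -0.54 to 1.88 for Ramp1 (both turned without normal high library 1), -5.94 to 3.30 for Calcrl, -7.28 to 2.03 for Ramp2 and 1.04 to 2.35 for Calca (highest without normal low library 1). Of the 5 genes most like Calca, 1 stayed under Spearman's rho. The causes were not tested. Groups of 2 libraries limit all results in Nes-GFP high BMSCs.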
